A study of Mus musculus with 8 samples.

Results

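Chemokines are small secreted proteins that direct the movement of white blood cells, and chemokine receptors are the membrane proteins on those cells that sense them. All gene symbols that begin with Ccl, Cxcl, Ccr or Cxcr followed by a digit were taken from the count tables of a mouse macrophage RNA-sequencing study, except Cxcl13 and Cxcl16. The rule gave 52 of 24421 symbols, of which 35 encode chemokines and 17 encode receptors. The study compared 3 groups of macrophages, all from mice on a normal diet: 3 libraries labelled WT (wild type), 3 labelled LysM-DKO and 2 labelled ABCG1KO. What the sample labels call LysM-DKO is named Epsin-DKO in the design text, and the names were treated as equivalent. LysM is lysozyme M, encoded by Lyz2, whose promoter is often used to drive Cre recombinase in myeloid cells. ABCG1 exports cholesterol from cells to lipoprotein particles. The title of the study concerns epsins, which are adaptor proteins of endocytosis, in lipid metabolism and cholesterol efflux through ABCG1. Age, sex, tissue of origin and exact alleles are not given in the sources used here.

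Chemokine receptors are coupled to inhibitory G proteins and turn a gradient of ligand into directed movement. Their ligands fall mainly into the CC and CXC families, named for the spacing of conserved cysteines. Many ligands bind several receptors and many receptors bind several ligands. Macrophages both make chemokines and carry receptors: CCR2 brings monocytes out of the bone marrow into tissue, CCR1 senses inflammatory CC chemokines, and CXCR4 senses CXCL12. The CXC chemokines that bind CXCR2 attract neutrophils.

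Libraries held 29567615 to 41888516 counts in genes. The levels given are counts per 1e6 counts (CPM) after TMM scaling, and errors beside means are standard deviations (SD). Nothing in the labels says whether libraries of a group came from separate mice or cultures. The p-values therefore measure the spread between these libraries only, and how much of that spread is technical was not tested. Abcg1 was at 405, 404 and 345 CPM in WT and 60.4 and 73.4 CPM in ABCG1KO. Epn1, which encodes epsin 1, was at 229.6, 203 and 191 CPM in WT and 169, 183 and 154 CPM in LysM-DKO (log2 fold change -0.30, SE 0.13, adjusted p = 0.430, edgeR). Epn2, for epsin 2, was at 8.18, 8.86 and 4.97 CPM and 5.67, 13.2 and 6.30 CPM. Neither epsin gene passed the test, and the counts cannot show the loss of a single exon, so LysM-DKO names the libraries by their label throughout. The defining macrophage markers Adgre1, Csf1r, Cd68, Mertk, Fcgr1, Itgam and Lyz2 were present in every library. Xist was at 0 counts and Y-linked genes were present in both ABCG1KO libraries, LysM-DKO 1 showed the male pattern as well, and the other 5 libraries showed the female pattern. Sex and genotype therefore cannot be told apart between ABCG1KO and WT. Xist had 2, 10883 and 10174 counts in the LysM-DKO libraries, so these did not all come from 1 mouse. Within WT and within ABCG1KO the libraries share 1 pattern, which does not show whether they came from separate mice.

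A gene was called expressed in a group where every library of that group reached 1 CPM. By this rule WT expressed 14 of the 52 genes (26.9%, beside 45.1% of all symbols). LysM-DKO expressed 15 (28.8%, beside 44.8%) and ABCG1KO 23 (44.2%, beside 45.4%). Expressed in at least 1 group were 24 genes (46.2%), made up of 19 chemokines and 5 receptors, and 47.7% of all symbols met the same rule. Among the 13 genes expressed in every group were Ccl2, Ccl3, Ccl4, Ccl6, Ccl7, Ccl9, Ccl25, Cxcl12, Cxcl14, Ccr1, Ccr2 and Cxcr4. Ccl22, Ccl24, Ccl5, Cxcl1, Cxcl2, Cxcl3, Cxcl5, Cxcl9, Cxcl10 and Cxcr3 reached the level in ABCG1KO and not in WT, and Ccl27a did so in WT and not in ABCG1KO. For Ccl5, Cxcl9, Cxcl10 and Cxcr3 the libraries of ABCG1KO and WT overlapped. The mean of Cxcl9 was lower in ABCG1KO (1.57 CPM) than in WT (2.34 CPM). The rule is easier to meet in 2 libraries than in 3, and at a level of 10 CPM the count over all groups was 11.

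No count was found in any library for Ccl1, Ccl19, Ccl21a, Ccl21b, Ccl21c, Ccl26, Ccl27b, Ccr8 and Cxcl11. The upper limit that 0 counts allow is 3 counts, or 0.0707 to 0.0941 CPM across these libraries, and this limit covers counting error only. Ccr4, the receptor of Ccl17 and Ccl22, had at most 3 counts. Another 18 genes had more than 3 counts in some library without being expressed in any group, among them the receptors Ccr3, Ccr7, Ccr10, Cxcr1, Cxcr2, Cxcr5 and Cxcr6. Of these, Ccl11, Ccl17, Ccr1l1, Ccr6, Ccr9, Cxcl15 and Cxcl17 stayed below the filter on low counts, which left 35 genes (23 chemokines and 12 receptors) for testing. Genes of the Ccl21, Ccl27 and Ccl19 families are near-identical copies, and reads shared between copies are lost by many counters, so their values are uncertain. In the GENCODE M21 transcripts, 45.0% of the 50-base words of Ccl27a and 100% of those of Ccl21b also occur in another gene. Ccl21c was not found in that annotation.

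**Figure D1:**
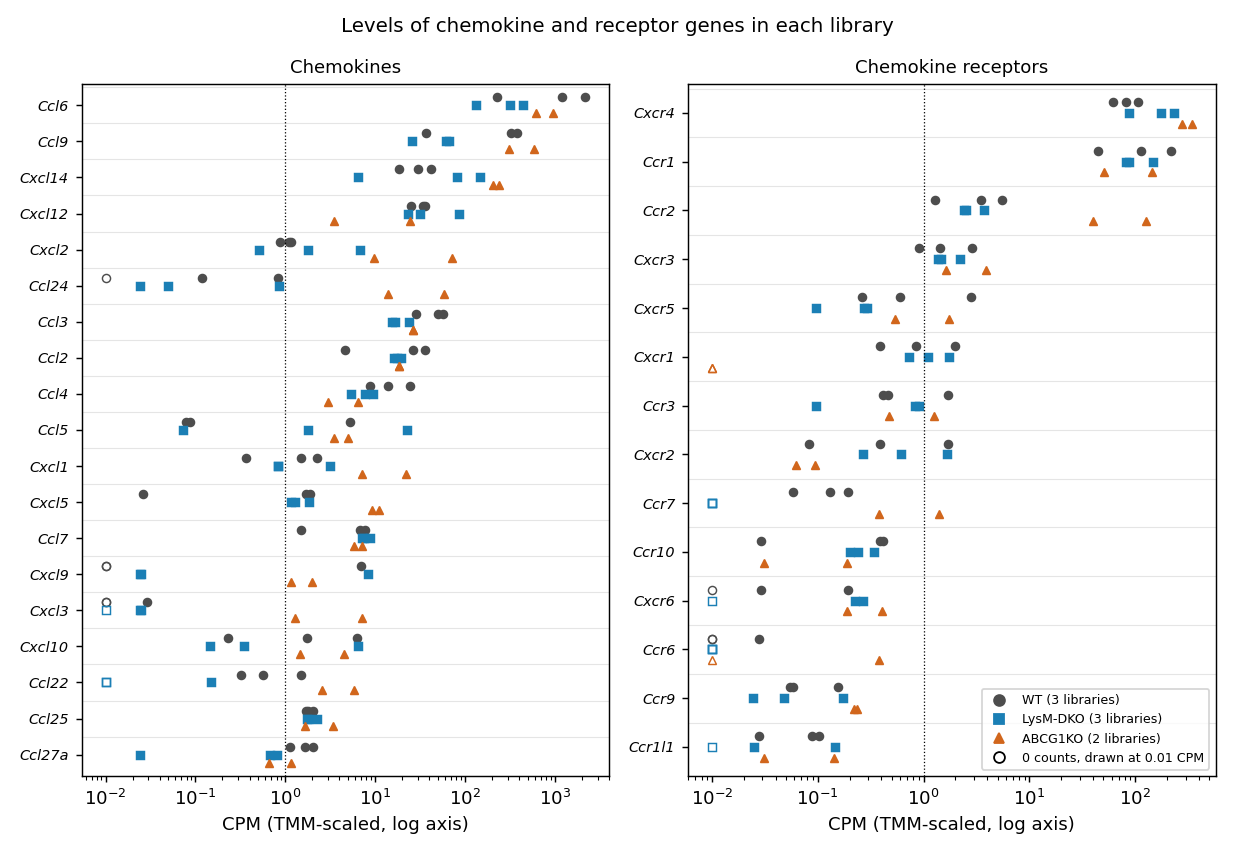
Level of each chemokine gene expressed in at least 1 group (left) and of receptor genes with more than 3 counts in some library (right). Each symbol is 1 library, the horizontal axis is CPM on a log scale, open symbols are libraries with 0 counts drawn at 0.01 CPM, and the dotted line marks 1 CPM. Ccl6 and Ccl9 reach the highest chemokine levels, and Cxcr4 and Ccr1 stand apart from the other receptors drawn except for Ccr2 in ABCG1KO.

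Among receptors, Cxcr4 and Ccr1 had the highest levels per kilobase of exon in each group. Cxcr4, the receptor of CXCL12, came first with 46.1 ± 12.6 CPM per kilobase in WT (SD, n = 3), 91.5 ± 40.2 in LysM-DKO (SD, n = 3) and 171 ± 23.9 in ABCG1KO (SD, n = 2). Ccr1, a receptor of CCL3, CCL5, CCL6 and CCL9, was at 44.0 ± 30.5, 37.1 ± 12.5 and 34.3 ± 23.3 CPM per kilobase in these groups. In WT the library range of Ccr1 per kilobase overlaps that of Cxcr4, so this step in the order does not exceed the spread. In ABCG1KO both libraries had Cxcr4 above Ccr1.

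Ccr1 varied within groups more than between them. Ccr1 was at 113, 217 and 44.7 CPM in WT, 87.7, 146 and 81.5 CPM in LysM-DKO and 144 and 50.4 CPM in ABCG1KO. WT 2 held the highest level and WT 3 the lowest, and the groups overlap. Ccr1 passed the test in no comparison, and its fold changes had adjusted p-values of 0.888 (LysM-DKO against WT) and 0.751 (ABCG1KO against WT) by edgeR. Cxcr3, a receptor of CXCL9 and CXCL10 best known from activated T cells, was at 1.44, 0.911 and 2.87 CPM in WT, 1.36, 1.46 and 2.22 CPM in LysM-DKO and 1.63 and 3.91 CPM in ABCG1KO, with all groups overlapping.

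Per kilobase of exon Ccl6 led the chemokines in every group, at 668 ± 540.4 CPM per kilobase in WT (SD, n = 3), 166 ± 87.1 in LysM-DKO (SD, n = 3) and 439 ± 135 in ABCG1KO (SD, n = 2). Ccl6 encodes a rodent CC chemokine that acts through CCR1. In CPM its libraries stood at 1207, 2165 and 225 CPM in WT, 445, 313 and 133 CPM in LysM-DKO and 961 and 617 CPM in ABCG1KO. WT 3 lay far below the other WT libraries and between the LysM-DKO libraries. Ccl9, another CCR1 ligand, was at 327, 381 and 37.0 CPM in WT, 60.9, 25.9 and 66.0 CPM in LysM-DKO and 583 and 307 CPM in ABCG1KO, again with WT 3 apart from WT 1 and WT 2. Ccl6 and Ccl9 together made up 69.2% to 92.1% of the summed chemokine CPM in WT and 71.3% to 77.2% in ABCG1KO, against 43.6% to 83.4% in LysM-DKO.

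The ligands of CCR2 lay lower. Ccl2, the main CCR2 ligand, was at 36.0, 26.6 and 4.58 CPM in WT, 17.7, 16.2 and 19.2 CPM in LysM-DKO and 18.5 and 18.3 CPM in ABCG1KO, and WT 3 held the lowest value of all libraries. Ccl7, another CCR2 ligand, was at 6.77, 7.62 and 1.50 CPM in WT, 8.77, 7.16 and 7.47 CPM in LysM-DKO and 5.80 and 7.10 CPM in ABCG1KO. For both genes the LysM-DKO and ABCG1KO libraries lay close together, within the range of WT for Ccl2. Cxcl12, the CXCR4 ligand made mainly by stromal cells, was at 34.3, 35.6 and 25.1 CPM in WT, 31.5, 23.2 and 86.3 CPM in LysM-DKO and 3.48 and 24.2 CPM in ABCG1KO. ABCG1KO 1 had the lowest value, and its summed fibroblast markers (Col1a1, Col1a2, Col3a1, Pdgfra and Dcn) were at 160.0 CPM against 1184 CPM in ABCG1KO 2. In WT that sum was 753 to 911 CPM and in LysM-DKO 678 to 1662 CPM. The part of these cells in the Cxcl12 level was not tested, and in bulk RNA fewer cells of a type cannot be told apart from less RNA per cell. Ccl25, a ligand of CCR9, was at 2.02, 1.79 and 1.68 CPM in WT, 2.25, 1.80 and 1.72 CPM in LysM-DKO and 3.35 and 1.65 CPM in ABCG1KO, and its reads may be shared with the overlapping gene Elavl1.

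The first comparison asked which of these genes differ between macrophages labelled LysM-DKO and WT. None of the 35 tested genes passed the edgeR quasi-likelihood test at an adjusted p of 0.05, where 5 of 13821 genes (0.0362%) did. At an unadjusted p under 0.05 there were 9 members (25.7%, beside 11.7% of all genes), and DESeq2 called 2 (of 278 over all genes), Ccl3 and Ccl22, both lower in LysM-DKO. In 5 of 35 genes the groups did not overlap, with every LysM-DKO library below every WT library for Ccl3, Ccl22, Ccl27a, Ccl28 and Ccr7. Over all tested genes 21.0% had groups that did not overlap, and 9.98% had LysM-DKO below WT. The median log2 fold change was -0.02 over the 35 genes and 0.02 over all genes tested.

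Ccl3 and Ccl4, which encode the inflammatory chemokines MIP-1α and MIP-1β, had lower means in LysM-DKO. Ccl3 was at 56.5, 50.5 and 28.3 CPM in WT and 23.9, 15.5 and 16.5 CPM in LysM-DKO, so that all 3 LysM-DKO libraries lay below the lowest WT library. Its log2 fold change of -1.27 (SE 0.27) had an adjusted p of 0.258 by edgeR, the smallest among the members, and 0.00349 by DESeq2. Over all alternatives the adjusted p of Ccl3 ran from 0.00349 to 0.636, and DESeq2 alone put it past the threshold. Ccl4 was at 13.8, 24.5 and 8.69 CPM in WT and 5.38, 7.77 and 9.52 CPM in LysM-DKO, with 1 WT library inside the LysM-DKO range (log2 fold change -1.05, SE 0.44, adjusted p = 0.415, edgeR). Ccl22, a ligand of CCR4, was low everywhere, with 0.322, 1.49 and 0.569 CPM in WT and 0, 0 and 0.150 CPM in LysM-DKO (adjusted p = 0.354 by edgeR, 0.0148 by DESeq2). With each library left out in turn, the adjusted p of Ccl22 by edgeR ranged from 0.224 to 0.674.

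Ccr7, the receptor that guides dendritic cells to lymph nodes, had 2, 7 and 5 counts in the WT libraries and 0 in each LysM-DKO library. Its mean CPM in WT was 1.35-fold the highest library floor of 3 counts. WT 1 was itself below 3 counts, and the test was not passed (adjusted p = 0.354, edgeR). Cxcr4 had the only higher mean among the 9 genes: 82.1, 61.3 and 107 CPM in WT and 176, 232 and 88.0 CPM in LysM-DKO, with LysM-DKO 3 inside the WT range (log2 fold change 0.99, SE 0.35, adjusted p = 0.362, edgeR). For Ccl6 and Ccl9 the log2 fold changes were -2.01 (SE 0.77) and -2.29 (SE 0.79), with adjusted p-values of 0.394 and 0.362 by edgeR, and WT 3 lay within the LysM-DKO range for both. The 2 remaining genes with an unadjusted p under 0.05 were Ccl28, with adjusted p = 0.361, and Cxcr5, with adjusted p = 0.409 (edgeR). Of the 7 macrophage markers, Lyz2 lay lower in every LysM-DKO library, at 6176, 8104 and 6265 CPM and 13002, 15145 and 15707 CPM in WT (log2 fold change -1.09, adjusted p = 0.173, edgeR), and the part of this difference in the chemokine levels was not tested. The other 6 overlapped between the groups, with log2 fold changes of -0.12 for Adgre1, -0.05 for Csf1r, -0.02 for Cd68, 0.50 for Mertk, -0.23 for Fcgr1 and -0.65 for Itgam.

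**Figure D2:**
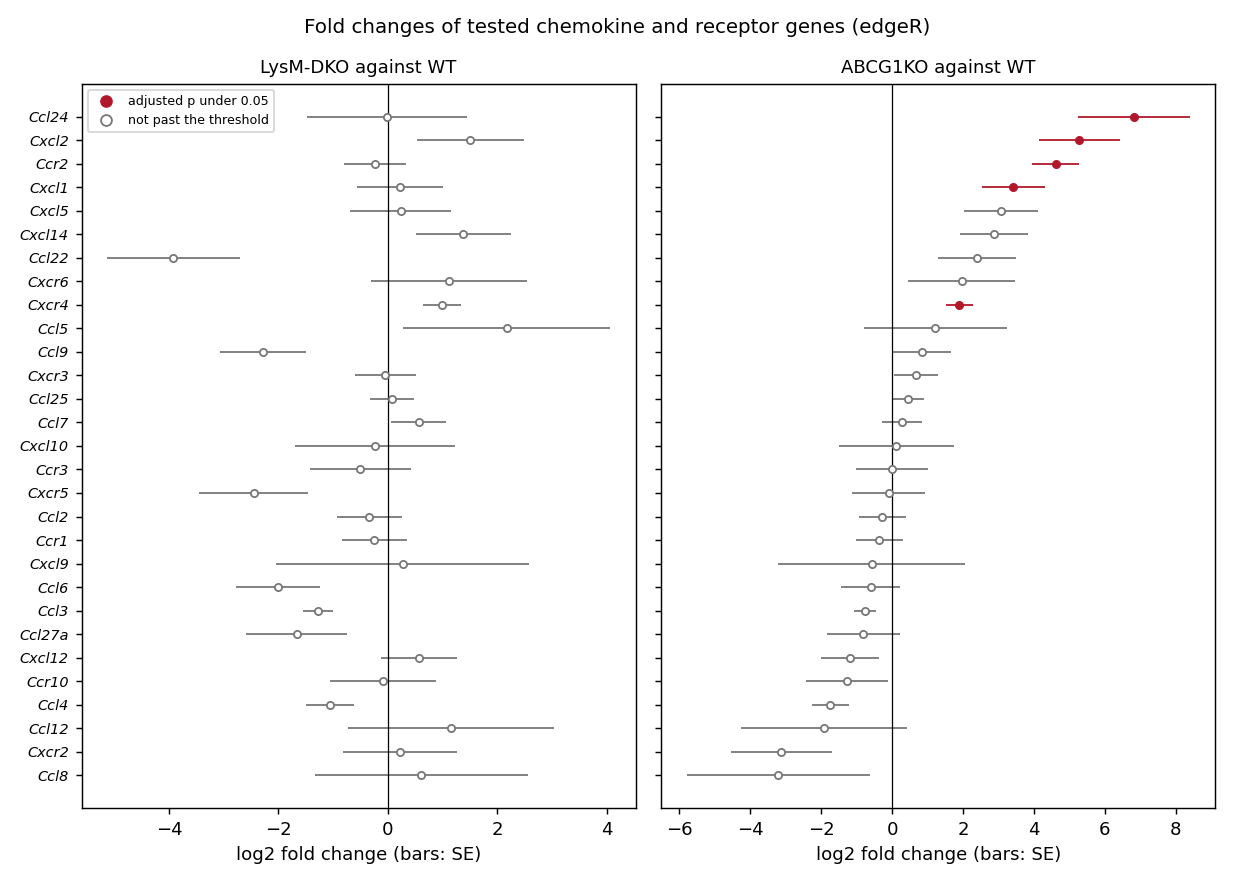
Log2 fold change against WT of 29 tested genes that exceed 3 counts in some library of each group. Points are edgeR estimates, bars are SE, filled red points have an adjusted p under 0.05, and genes follow their order in ABCG1KO against WT. No gene is filled for LysM-DKO, and Ccl24, Cxcl2, Ccr2, Cxcl1 and Cxcr4 are filled to the right of 0 for ABCG1KO.

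ABCG1KO differed from WT in 7 of the 35 tested genes (20.0%), where 16.0% of all tested genes passed. Ccr2, Cxcr4, Cxcl1, Cxcl2, Cxcl3 and Ccl24 rose (6 genes, beside 7.21% of all genes higher) and Cxcr1 fell (beside 8.83% lower). An unadjusted p under 0.05 was found for 13 members, beside 31.5% of all genes. The count of 7 was 2 without ABCG1KO 1 (Ccr2 and Cxcl3), 3 without WT 1 (Ccr2, Cxcl3 and Cxcr1), and 1 with a term for the sex-linked pattern, under which none of the 7 kept its call. Thus both the monocyte receptor and a set of neutrophil attractants were higher in both ABCG1KO libraries than in any WT library. The groups did not overlap for 15 genes, 10 higher and 5 lower. Over all tested genes 48.2% had groups that did not overlap, 23.9% with ABCG1KO higher and 24.2% with it lower. The median log2 fold change over the 35 genes was 0.12, against 0.01 over all genes.

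Ccr2 (ENSMUSG00000049103, chr9:124101950-124113557 in GRCm38) was at 3.52, 5.47 and 1.29 CPM in WT and 127 and 40.2 CPM in ABCG1KO. The lower ABCG1KO library was still far above the highest WT library. The log2 fold change was 4.61 (SE 0.66, adjusted p = 0.00446, edgeR), a 24.4-fold difference, and LysM-DKO stayed at 2.54, 2.41 and 3.75 CPM. Its ligands Ccl2 and Ccl7 did not pass the test, with log2 fold changes of -0.28 (SE 0.67) and 0.29 (SE 0.57). Of the 50-base words of Ccr2, 1.91% occur in another gene. Cxcr4 (ENSMUSG00000045382, chr1:128588199-128592293) was at 82.1, 61.3 and 107 CPM in WT and 279 and 340.1 CPM in ABCG1KO, with no overlap. It rose by 1.89 on the log2 scale (SE 0.38, adjusted p = 0.0152, edgeR), and its adjusted p was 0.0525 without WT 1, 0.0543 without ABCG1KO 1 and 0.0567 without ABCG1KO 2.

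Cxcr1 and Cxcr2, the receptors by which neutrophils sense CXC chemokines, had low counts. Cxcr1 (ENSMUSG00000048480, chr1:74191785-74194631) had 67, 14 and 33 counts in WT, 45, 71 and 29 in LysM-DKO and 0 in both ABCG1KO libraries. It fell in ABCG1KO (adjusted p = 0.0138, edgeR), and its mean CPM in WT was 11.4-fold the highest library floor of 3 counts. Without ABCG1KO 1 its adjusted p was 0.0567. Cxcr2 was at 1.70, 0.0828 and 0.388 CPM in WT and 0.0627 and 0.0943 CPM in ABCG1KO, where 1 WT library lay inside the ABCG1KO range and the test was not passed (adjusted p = 0.172, edgeR). The neutrophil markers S100a8, S100a9, Mpo, Elane, Camp and Ltf summed to 2.90 to 3.96 CPM in WT, 1.10 to 3.00 CPM in LysM-DKO and 3.04 to 6.11 CPM in ABCG1KO, with S100a9 and Mpo at 0 in WT and LysM-DKO. The part of neutrophils in the Cxcr1 difference was not tested.

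The ligands that rose are mostly the CXCR2 ligands, which lie in the same gene block on chromosome 5. Stretches upstream of the start sites of Cxcl1, Cxcl2 and Cxcl3 are shown because these 3 genes rose together and each holds letters of the NF-κB motif there. They run from 150 to 51 bases before the RefSeq start site (GRCm38.p6, plus strand) at chr5:90891095-90891194, chr5:90903749-90903848 and chr5:90785951-90786050, and capitals mark GGG, any 2 bases and TTTCC on either strand.
Cxcl1: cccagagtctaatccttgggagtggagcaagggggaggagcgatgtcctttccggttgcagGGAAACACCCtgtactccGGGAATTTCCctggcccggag
Cxcl2: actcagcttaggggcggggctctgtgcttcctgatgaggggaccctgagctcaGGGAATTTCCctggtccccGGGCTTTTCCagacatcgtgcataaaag
Cxcl3: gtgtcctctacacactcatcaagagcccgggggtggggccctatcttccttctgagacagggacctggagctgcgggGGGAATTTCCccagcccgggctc
Cxcl1 holds the letters 2 times, beginning 89 and 71 bases before the start site, Cxcl2 2 times, at 97 and 78 bases, and Cxcl3 once, at 73 bases. NF-κB is the transcription factor family that switches on many inflammatory chemokines. Searched on both strands from 250 bases before to 50 bases after the start, the letters were found in 1.63% of 32851 RefSeq promoters. Of the 37 member genes in the RefSeq promoter table, 6 held them, the other 3 being Ccl9, Ccl20 and Ccr3, none of which passed the test in ABCG1KO against WT. Cxcl15, which lies between Cxcl3 and Cxcl1 and was not tested, held none. A match describes the sequence and does not show binding.

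Cxcl1 (ENSMUSG00000029380), which encodes the neutrophil attractant KC, was at 1.49, 2.26 and 0.362 CPM in WT and 22.2 and 7.05 CPM in ABCG1KO. The log2 fold change was 3.41 (SE 0.89, adjusted p = 0.0371, edgeR). Cxcl2 (ENSMUSG00000058427), for MIP-2, was at 0.879, 1.16 and 1.11 CPM in WT and 72.1 and 9.81 CPM in ABCG1KO, with ABCG1KO 1 several times above ABCG1KO 2 and both above WT. It rose by 5.28 on the log2 scale (SE 1.14, adjusted p = 0.0212, edgeR). Cxcl3 (ENSMUSG00000029379), a further ligand of CXCR2, had 1, 0 and 0 counts in WT, 1, 0 and 1 in LysM-DKO and 225 and 55 in ABCG1KO. The ratio of its scaled counts, ABCG1KO over WT, was 411 with a 95% counting interval of 73.1 to 16280 (exact, counting error only), and its adjusted p was 0.00463 by edgeR. Cxcl2 shares 5.84% and Cxcl3 4.29% of its 50-base words with another gene, including each other, and Cxcl1 shares none.

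Cxcl5, another CXCR2 ligand, did not pass the test, though both ABCG1KO libraries lay above WT: 1.70, 1.90 and 0.0259 CPM in WT and 9.28 and 11.1 CPM in ABCG1KO (log2 fold change 3.07, SE 1.03, adjusted p = 0.0816, edgeR). Without WT 3, its lowest library, the adjusted p of Cxcl5 was 0.0123. Leaving out single libraries took the calls from Cxcl1 and Cxcl2 as well: without ABCG1KO 1 the adjusted p was 0.203 for Cxcl1 and 0.117 for Cxcl2, and without WT 1, WT 2 or WT 3 in turn both genes missed the threshold. Ccr2 and Cxcl3 kept their calls when each of the 8 libraries was left out in turn.

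The gene block from Cxcl5 to Cxcl2 (chr5:90759360-90905938) holds 7 protein-coding genes with a symbol in the count tables: Cxcl5, Ppbp, Pf4, Cxcl3, Cxcl15, Cxcl1 and Cxcl2. The block was picked after looking at the values. Of the 6 tested, 4 rose in ABCG1KO, namely Ppbp, Cxcl3, Cxcl1 and Cxcl2. Ppbp, the gene of a platelet CXC chemokine, was at 0, 0 and 0.0259 CPM in WT and 0.878 and 0.401 CPM in ABCG1KO (adjusted p = 0.0200, edgeR). Pf4, for platelet factor 4, was at 15.4, 33.7 and 3.60 CPM and 163 and 99.1 CPM, with no overlap and an adjusted p of 0.0559. In the CC chemokine blocks on chromosome 11, chr11:82035571-82305690 (Ccl2, Ccl7, Ccl11, Ccl12, Ccl8, Ccl1) and chr11:83525778-83664683 (Ccl5, Ccl9, Ccl6, Ccl3, Ccl4), no gene passed the test in ABCG1KO against WT or in LysM-DKO against WT.

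Ccl24 (ENSMUSG00000004814, chr5:135569937-135573049), which encodes eotaxin-2, a ligand of CCR3 that attracts eosinophils, was at 0.117, 0.828 and 0 CPM in WT and 57.6 and 14.0 CPM in ABCG1KO, and had 1, 35 and 2 counts in the LysM-DKO libraries. Both ABCG1KO libraries lay above all others. It rose by 6.82 on the log2 scale (SE 1.59, adjusted p = 0.0275, edgeR), and the adjusted p was 0.139 without ABCG1KO 1, 0.0888 without WT 1 and 0.0618 without WT 3. Its receptor Ccr3 was at 0.410, 1.71 and 0.466 CPM in WT and 0.470 and 1.25 CPM in ABCG1KO, with overlapping groups.

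**Figure D3:**
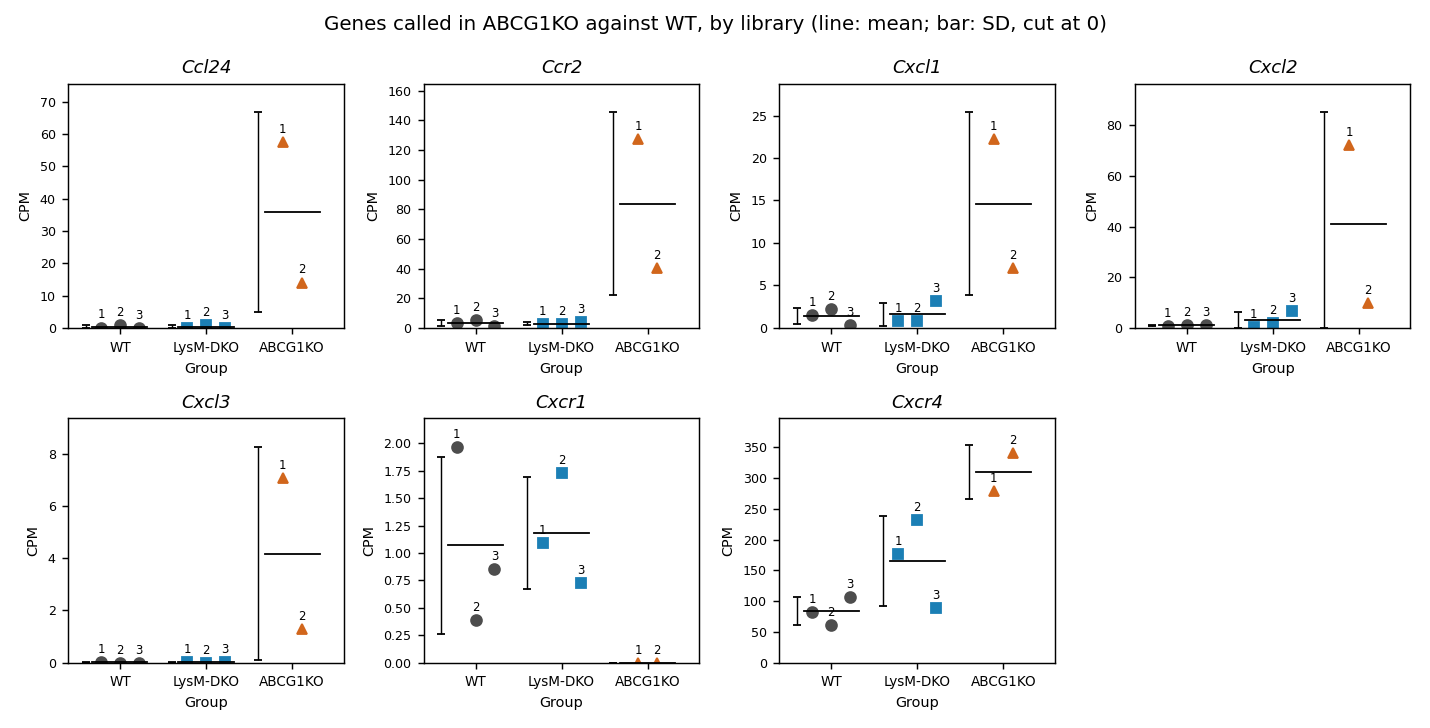
CPM of the 7 genes called in ABCG1KO against WT, 1 panel per gene. Each symbol is 1 library with its replicate number, horizontal lines are group means, and bars are SD cut at 0. In the 6 genes that rose both ABCG1KO libraries lie above all WT libraries, and ABCG1KO 1 exceeds ABCG1KO 2 except for Cxcr4.

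Other chemokines lay outside the WT range without passing the test. Cxcl14, a CXC chemokine made by many epithelia, was at 18.2, 29.9 and 42.0 CPM in WT, 6.47, 147 and 80.6 CPM in LysM-DKO and 204 and 238 CPM in ABCG1KO (log2 fold change 2.88, SE 0.96, adjusted p = 0.0829, edgeR). Both ABCG1KO libraries exceed every other library. The adjusted p of Cxcl14 was 0.00382 without LysM-DKO 1, the lowest library, and 0.00473 with WT and ABCG1KO fitted alone. Ccl22 was at 5.83 and 2.55 CPM in ABCG1KO, above its WT values (adjusted p = 0.174). Ccl4 was at 6.36 and 3.02 CPM in ABCG1KO, below its WT values (log2 fold change -1.74, SE 0.52, adjusted p = 0.0544), and Ccl3 at 26.3 and 26.2 CPM was also below WT (adjusted p = 0.126). Ccl28 had no count in ABCG1KO and 14, 12 and 2 counts in WT (adjusted p = 0.0529, edgeR).

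Several measures moved with the ABCG1KO label, and their part in these results was not tested. Dendritic cell markers (6 measured) summed to 16.7 to 17.2 CPM in ABCG1KO, 1.47 to 8.45 CPM in WT and 1.33 to 3.00 CPM in LysM-DKO, with Siglech at 0 in WT and Flt3 at 0 in LysM-DKO. Siglech, Cd209a and Zbtb46 held most of the ABCG1KO sum and lay above every WT library. Clec9a lay below every WT library (0.314 and 0.212 CPM beside 0.674, 5.96 and 0.750 CPM in WT). Xcr1 had 1 count in each ABCG1KO library, and Flt3 had 10 and 0. Mast cell markers (6 measured) summed to 8.07 to 46.6 CPM in ABCG1KO and at most 3.12 CPM elsewhere, with ABCG1KO 1 the higher, Ms4a2 at 0 in WT and Mcpt4 at 0 in LysM-DKO. Endothelial markers (5 measured) summed to 17.7 to 32.1 CPM in ABCG1KO, 91.0 to 117 CPM in WT and 62.6 to 88.8 CPM in LysM-DKO. Vwf and Kdr held most of that sum and fell in ABCG1KO, while Pecam1 (5.42 and 7.73 CPM beside 0.381, 2.73 and 0.699 CPM in WT) and Cdh5 (0.439 and 0.684 CPM beside 0.147, 0.221 and 0.259 CPM) lay above every WT library without passing the test. Eosinophil markers (5 measured) summed to 3.61 to 6.20 CPM in ABCG1KO, 14.1 to 29.8 CPM in WT and 2.32 to 13.1 CPM in LysM-DKO, with Ear6 at 0 in each group and Epx at 0 in WT and LysM-DKO. Siglecf held most of that sum in every library, and Prg2, Epx and Ear6 had at most 3 counts in any library. Of the 7 macrophage markers, Adgre1 and Csf1r rose in ABCG1KO (log2 fold changes 1.21 and 1.19, adjusted p = 0.0147 and 0.0172, edgeR) and Cd68 fell, from 2662, 2124 and 2343 CPM in WT to 917 and 1369 CPM (log2 fold change -1.06, adjusted p = 0.0192). Itgam (log2 fold change 1.01), Fcgr1 (-0.85), Lyz2 (-0.19) and Mertk (-0.12) did not pass. With a term for the sex-linked pattern, which rests on LysM-DKO 1 alone, only Cxcl14 was called and all 7 calls were lost, with adjusted p-values from 0.0605 (Cxcl2) to 0.261 (Cxcl3). The directions were kept with that term: the log2 fold change was 4.89 for Ccr2 (SE 1.25, adjusted p = 0.0916), 1.76 for Cxcr4 (SE 0.70) and 4.68 for Cxcl1 (SE 1.64).

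LysM-DKO and ABCG1KO were also compared directly, and this comparison shares its libraries with the others. Ccr2, Ccr7, Cxcl1, Cxcl3, Ccl22 and Ccl24 were lower in LysM-DKO and Cxcr1 was higher, 7 of 35 genes (20.0%) beside 13.4% of all tested genes, of which 5.64% were lower and 7.76% higher in LysM-DKO. Ccr2 differed by -4.85 on the log2 scale (SE 0.67, adjusted p = 0.00440, edgeR). Ccl22, at 0, 0 and 0.150 CPM in LysM-DKO and 5.83 and 2.55 CPM in ABCG1KO, differed by -6.31 (SE 1.33, adjusted p = 0.0206). Ccr7 had 0 counts in LysM-DKO and 45 and 16 in ABCG1KO (adjusted p = 0.0188, edgeR), and its mean CPM in ABCG1KO was 9.51-fold the highest library floor of 3 counts. Dendritic cell markers did not all differ in the same direction between these groups. Siglech, Cd209a and Zbtb46 were lower in each LysM-DKO library than in either ABCG1KO library. Clec9a was higher in each LysM-DKO library, and Xcr1 and Flt3 overlapped. Cxcl2 and Ccl9 were lower in each LysM-DKO library than in either ABCG1KO library and missed the threshold, with adjusted p-values of 0.0554 and 0.0508. Without ABCG1KO 1 the calls left were Ccr2 and Cxcl3, and without WT 3 there were 9.

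Other genes of chemokine signalling were read from a list of 56 genes, of which 54 are in the tables and 49 were tested. In ABCG1KO against WT, 14 of 49 passed (28.6%, where 16.0% of all genes did), 13 higher and 1 lower, with a median log2 fold change of 0.10. Among the receptor genes of the list, Cmklr1, the receptor of the attractant chemerin, was at 33.0, 49.0 and 45.3 CPM in WT and 233 and 163 CPM in ABCG1KO (log2 fold change 2.22, SE 0.29, adjusted p = 0.00224, edgeR). Ackr3, a receptor that scavenges CXCL12, was at 0.0879, 0 and 0.0259 CPM and 5.52 and 1.67 CPM (adjusted p = 0.00670). Cx3cr1, the fractalkine receptor of monocytes and macrophages, was at 4.40, 16.9 and 3.75 CPM and 95.4 and 79.8 CPM and did not pass (adjusted p = 0.0523).

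The genes of the signalling machinery that rose were Gnai3, an inhibitory G protein subunit, Arrb2, a β-arrestin, the receptor kinases Grk5 and Grk6, the guanine exchange factors Vav1 and Tiam1, and the kinases Jak2 and Fgr. Nfkb1, an NF-κB subunit, was at 94.2, 99.8 and 113 CPM in WT and 245 and 168 CPM in ABCG1KO (log2 fold change 1.01, SE 0.18, adjusted p = 0.00870, edgeR). Nfkbia, the inhibitor that NF-κB itself induces, was at 42.8, 39.8 and 50.7 CPM and 258 and 103 CPM (log2 fold change 2.02, adjusted p = 0.00630). Rela and Ikbkb, also in the list, did not pass (log2 fold changes 0.22 and 0.24, adjusted p = 0.464 and 0.231, edgeR). Rgs1, which shortens chemokine receptor signals, fell from 188, 232 and 175 CPM in WT to 56.3 and 29.7 CPM in ABCG1KO (log2 fold change -2.21, SE 0.51, adjusted p = 0.0265). For Nfkb1, Nfkbia and Rgs1 the groups did not overlap. The count of 14 was 7 without WT 1, 9 without WT 2, 7 without WT 3, 5 without ABCG1KO 1 and 0 with the sex term.

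In LysM-DKO against WT none of the 49 passed edgeR, 9 had an unadjusted p under 0.05 (18.4%, beside 11.7% of all genes) and DESeq2 called 2 (of 278 over all genes). Ackr3 was at 0.485, 1.02 and 0.400 CPM in LysM-DKO, above every WT library, and missed the threshold (adjusted p = 0.289, edgeR). Cmklr1 at 94.1, 80.3 and 50.4 CPM was likewise above WT (log2 fold change 0.82, SE 0.26, adjusted p = 0.354). In LysM-DKO against ABCG1KO, 12 of 49 passed (24.5%, beside 13.4% of all genes), 3 higher (beside 7.76%) and 9 lower (beside 5.64%), and the count was 1 without ABCG1KO 1.

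Some chemokines differed more between libraries of a group than between groups, and these genes were picked after looking at the values. Cxcl9 and Cxcl10 encode CXCR3 ligands that interferons induce. Cxcl9 was at 0, 7.01 and 0 CPM in WT, 0.0242, 8.41 and 0.0250 CPM in LysM-DKO and 1.98 and 1.16 CPM in ABCG1KO. Cxcl10 was at 1.73, 6.21 and 0.233 CPM in WT, 0.145, 6.43 and 0.350 CPM in LysM-DKO and 4.48 and 1.44 CPM in ABCG1KO. WT 2 and LysM-DKO 2 stood above the other libraries of their groups for both genes. Ccl8, a ligand of CCR8, was at 0.557, 10.8 and 0 CPM in WT, 1.24, 15.9 and 0.275 CPM in LysM-DKO and 0.815 and 0.0236 CPM in ABCG1KO. Ccl12, a CCR2 ligand, was at 0.0293, 2.04 and 0.0259 CPM in WT, 0.121, 4.53 and 0.0250 CPM in LysM-DKO and 0.251 and 0.118 CPM in ABCG1KO. The same WT 2 and LysM-DKO 2 were high again. Ccl5, also known as RANTES, differed in that LysM-DKO 3 held its highest level, at 0.0727, 1.78 and 22.5 CPM in LysM-DKO beside 0.0879, 5.25 and 0.0776 CPM in WT. For these 5 genes the adjusted p by edgeR was at least 0.661 in LysM-DKO against WT and 0.438 in ABCG1KO against WT.

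The Cxcl10 promoter is shown because it carries, alone among Cxcl9, Cxcl10, Ccl8 and Ccl12, the letters of the interferon-stimulated response element, GAAA, any 2 bases and GAAA. The stretch runs from 250 to 151 bases before the start site (GRCm38.p6, chr5:92349040-92349139, minus strand), with the match in capitals at 213 bases.
Cxcl10: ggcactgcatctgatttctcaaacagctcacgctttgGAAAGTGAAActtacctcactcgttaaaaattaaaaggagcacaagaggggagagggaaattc
On both strands of the same windows as above, these letters occur in 3.44% of 32851 promoters, and among the member genes also in Ccl19 and Cxcl14.

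**Figure D4:**
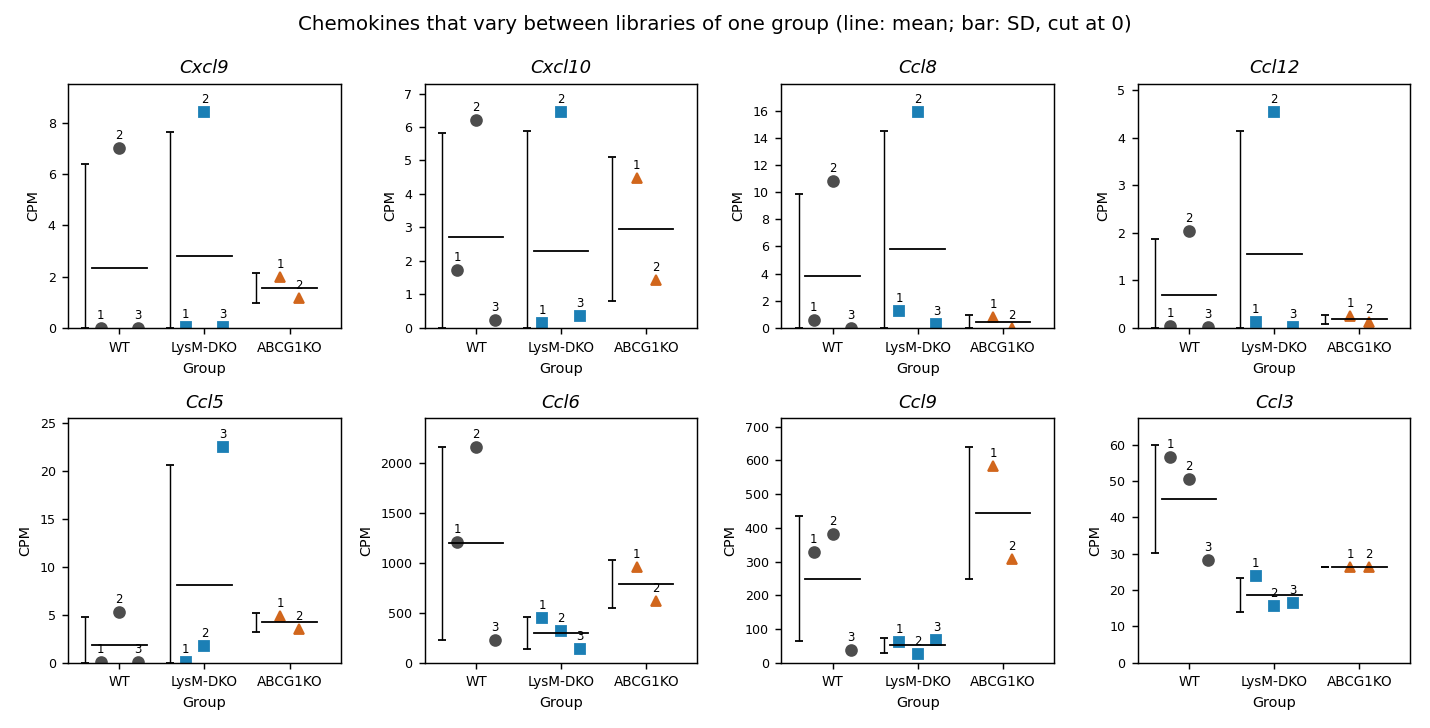
CPM of 8 chemokines by library. Each symbol is 1 library with its replicate number, lines are means and bars are SD cut at 0. For Cxcl9, Cxcl10, Ccl8 and Ccl12 library 2 of WT and of LysM-DKO stands alone, for Ccl6 and Ccl9 WT 3 is far below WT 1 and WT 2, and for Ccl3 the LysM-DKO libraries lie below WT.

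Across the 35 tested genes, WT 2 was the highest WT library for 23 (65.7%) and WT 3 the lowest for 21 (60.0%), while over all tested genes these shares were 32.3% and 33.2%. WT 2 also had the highest summed B cell markers, 30.8 CPM against 1.45 to 15.3 CPM in the other libraries, and the part of such cells in its chemokine levels was not tested. Without WT 2 or WT 3 no member was called in LysM-DKO against WT.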

How the data were processed

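RNA sequencing of mouse macrophages gave 1 table of raw read counts per gene symbol for each of 8 libraries. The authors' deposited counts came from htseq-count, per the file headers and the submitters' processing notes, which also name STAR 2.7.9a, TopHat, HTSeq 0.11.2, DESeq2 1.30.1, limma and mm10 without saying what each was used for. The annotation, strand setting and read length are not given in the sources used here, so overlapping and antisense genes are uncertain. The 5 special lines that name no gene entered neither library sizes nor tests. Of all counted reads, those outside genes made up 4.26% to 13.8% and those aligned to several loci 2.65% to 6.93%.

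The test was edgeR 4.0.16 (R 4.3.3). Its filterByExpr function by group passed 13821 genes, and TMM factors scaled the library sizes. All 8 libraries entered 1 quasi-likelihood fit with the robust option, a term per group and no covariate, with 5 residual degrees of freedom (median prior degrees of freedom 3.33, biological coefficient of variation 36.1%). Benjamini-Hochberg adjustment ran over all genes tested, and genes under 0.05 were called. The fit was tested on simulated data, in which far fewer genes were changed than the 2216 that passed in ABCG1KO against WT. Of genes changed 2-fold, it called 13.5% in LysM-DKO against WT and 2.83% in ABCG1KO against WT. Of genes changed 4-fold, it called 69% and 61.8%. Many changes of these sizes were therefore missed in that setting. Because the adjusted p depends on how many genes change, these shares do not give the sensitivity of the test in ABCG1KO against WT. Standard errors were derived from the F statistic. The members and the gene lists were chosen with earlier results of these data known. Named with every library's value were members called in any comparison, members at 10 CPM or more in each library of a group, and expressed receptors; 1 member is counted but not reported here, and other members are named by range or were chosen after their values were seen, and from the pathway list genes called against WT may be named. Alternatives were RLE factors, unscaled library sizes, no filter and a stricter filter of 10 counts, fits of only the groups compared, a replicate block, a sex term, DESeq2 1.42.0, leaving out each library and other CPM levels, and, added after the data were seen, the fit without the robust option. Shared sequence was measured on GENCODE M21 transcripts (GRCm38) with 50-base words, and promoters of 300 bases came from RefSeq (GRCm38.p6). Exon lengths are those of the union of exons in GENCODE M21.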

Additional observations from a re-analysis of the deposited data

Results flagged for a closer look

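Reads left without a gene were more frequent in the ABCG1KO libraries than in any WT library. Multi-locus reads were 6.93% of counted reads in ABCG1KO 1 and 6.74% in ABCG1KO 2, against at most 3.00% in WT. Reads outside annotated genes made up 13.8% in ABCG1KO 1 and 10.2% in ABCG1KO 2, against at most 5.88% in WT. These reads are outside the counts tested, and their part in the chemokine results was not tested. Ccr2, Cxcl2 and Cxcl3, called in ABCG1KO against WT, share 1.91%, 5.84% and 4.29% of their 50-base words with other genes, and Cxcl1, Ccl24, Cxcr1 and Cxcr4 share none.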

How the results depend on the processing

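Of the fold changes of single chemokine and receptor genes, 34 had an unadjusted p under 0.05, and over their 570 alternative values 492 kept direction and side of the threshold, 51 fell short of it, 27 moved past it and 0 changed direction. Among the other 71 fold changes, 43 changed sign under some alternative and 3 passed the threshold under some. The count of called genes in LysM-DKO against WT was 0 under all alternatives except DESeq2 (2), and stayed 0 with each library left out in turn. In ABCG1KO against WT the count of 7 became 1 with the sex term and 11 with DESeq2, and ranged from 2 to 8 with a library left out. In LysM-DKO against ABCG1KO the count of 7 became 3 with the replicate block and 3 with the sex term, and ranged from 2 to 9 with a library left out. For the other pathway genes the count was 2 with DESeq2 in LysM-DKO against WT, 0 with the sex term and 5 to 14 with a library left out in ABCG1KO against WT, and, in LysM-DKO against ABCG1KO, 5 with only the groups compared, 6 with the replicate block, 2 with the sex term and 1 to 10 with a library left out. The count of 24 expressed genes was 11 at 10 CPM and 24 to 26 with a library left out. Unscaled library sizes moved the all-gene median (log2) in ABCG1KO against WT from 0.01 to 0.25 and in LysM-DKO against WT from 0.02 to 0.17, with 8 and 0 members called. The fit without the robust option gave 0, 7 and 9 calls in the 3 comparisons in the order above.

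Replicate numbers were not taken to pair libraries: deviations from group means of WT and LysM-DKO libraries with the same number correlated at 0.03, 0.48 and -0.05 across genes. With the replicate block the counts of called members were 0 in LysM-DKO against WT, 5 in ABCG1KO against WT (Cxcl1 and Cxcr4 were lost) and 3 in LysM-DKO against ABCG1KO, and not every library correlated best with its own number. With 2 ABCG1KO libraries, leaving one out leaves a single library that is assumed to vary like the others. Differences below the floor of 3 counts per library were not detectable at this depth.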

Other observations

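Markers of T cells and NK cells were low in all libraries, while those of B cells and mesothelium varied between libraries. The part of such cells in the chemokine levels was not tested. T cell markers (5 measured) summed to 1.76 to 3.70 CPM in WT, 1.40 to 5.51 CPM in LysM-DKO and 1.54 to 3.25 CPM in ABCG1KO, and NK cell markers (5 measured) stayed at or below 1.07 CPM, with Ncr1 at 0 in every library. B cell markers (6 measured) summed to 2.85 to 30.8 CPM in WT, 1.45 to 3.85 CPM in LysM-DKO and 3.11 to 15.3 CPM in ABCG1KO. Mesothelial markers (5 measured) summed to 7.61 to 43.8 CPM in WT, 5.38 to 58.0 CPM in LysM-DKO and 6.15 to 23.1 CPM in ABCG1KO.

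The eotaxin Ccl11 was found only at the edge of detection, with 15, 4 and 6 counts in the LysM-DKO libraries and 0 in each WT and ABCG1KO library, and it was not tested. Ccr6, the receptor of Ccl20, had 12 and 0 counts in ABCG1KO, 0, 1 and 0 in WT and 0 in each LysM-DKO library. Ccl17 had 13 and 1 counts in ABCG1KO, 0, 1 and 1 in WT and 0, 1 and 0 in LysM-DKO, so that ABCG1KO 1 holds most of its counts. Summed over all 35 chemokine genes, levels were 378 to 2764 CPM in WT, 456 to 606 CPM in LysM-DKO and 1294 to 2000 CPM in ABCG1KO. Without Ccl6 and Ccl9 the sums were 116 to 218 CPM in WT, 101 to 261 CPM in LysM-DKO and 371 to 456 CPM in ABCG1KO.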
